A study of Mus musculus with 6 samples.

Results

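The cell cycle and Myc network genes are 47 genes for cyclins, cyclin-dependent kinases (CDKs) and their inhibitors, the CDC25 phosphatases and WEE1, E2F factors, the Rb family, p53 and MDM2, mitotic kinases and checkpoint proteins, and MYC with its partners. They were chosen by name from these 9 roles, and all 47 were found among the 21887 protein-coding genes of the annotation. Around them were collected the ESRRB regions whose summit lay no more than 50 kb from the gene span. Such regions numbered 71 of 13767 in 2iL, then 62 of 10970 (48 h) and 45 of 7018 (96 h). The cells were E14 mouse embryonic stem cells, 1 established line, grown on gelatin in N2B27, a serum-free medium. The first group had 2iL in that medium: LIF, a cytokine, with CHIR99021 at 3 µM, which blocks GSK3, and PD0325901 at 1 µM, which blocks MEK. The other groups came from the same medium without 2iL, after 48 h or 96 h. Each group had 1 library made with a mouse monoclonal antibody to ESRRB and 1 input library without antibody, and only the antibody libraries had peak lists here. Expression was not measured in these data, so neither the state of the cells nor their share in each cycle phase could be checked against marker genes.

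ESRRB is an orphan nuclear receptor and a DNA-binding member of the network that keeps mouse embryonic stem cells naive. Such cells divide fast and have a short G1 phase. Cyclins switch on CDKs at each step of the cycle, CDK inhibitors and WEE1 hold them back, CDC25 phosphatases release them, and Rb family proteins restrain the E2F factors that switch on S-phase genes. MYC and MYCN bind DNA as dimers with MAX and raise the output of growth genes, and MGA is a MAX partner that represses.

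A region here is 1 unique interval of a peak list, and its fold is the authors' enrichment of its highest summit over the local background of the same library. The number of reads at a summit follows from its fold and p, and the 95% intervals given for folds are exact Poisson intervals of those reads, which cover counting error only. The lowest background level was 5.04 reads in 2iL, 8.09 at 48 h (1.60 times the 2iL level) and 5.84 at 96 h (1.16 times), and median folds over all regions were 5.88, 4.98 and 4.82. Percentiles of a fold within its own library are therefore given for the strongest positions and wherever they order the libraries of a described position otherwise than the folds do. With 1 library per condition there was no replicate and no test between conditions, and a region that was not called may have held ESRRB below the calling threshold. A region near a gene is not shown to act on it.

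The first question was how many of these genes lay near ESRRB before and after 2iL withdrawal. Of the 47 members, 33 had a region within 50 kb in 2iL (70.2%), 30 did at 48 h (63.8%) and 27 did at 96 h (57.4%). Over all protein-coding genes the shares were 56.0%, 49.9% and 39.6%. Exact 95% binomial intervals of the members' shares were 55.1 to 82.7, 48.5 to 77.3 and 42.2 to 71.7. The all-gene values in 2iL and at 48 h lay within these intervals, and that at 96 h lay below. The intervals treat the members as independent draws, although neighbours such as Cdkn2a and Cdkn2b share a region. The members were also chosen by name with earlier results of these data known. The intervals are therefore no test of the members against all genes. The lists differ in length, and with equally long lists 24, 22 and 27 members had a region (51.1%, 46.8% and 57.4%, against 37.8%, 37.0% and 39.6% of all genes), so the fall from 2iL to 96 h was not seen. In any library 41 members (87.2%) had a region, against 64.1% of all genes, and 20 members (42.6%) had a region in all 3 libraries, against 33.4%. The median number of other coding genes within 100 kb was 4 for the members and for all genes, and the median span was 14.3 kb against 17.2 kb. Any part of gene density or span in these shares was not tested. The mean number of regions per member was 1.53, 1.34 and 0.957, against 1.24, 0.963 and 0.648 over all genes.

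**Figure D1:**
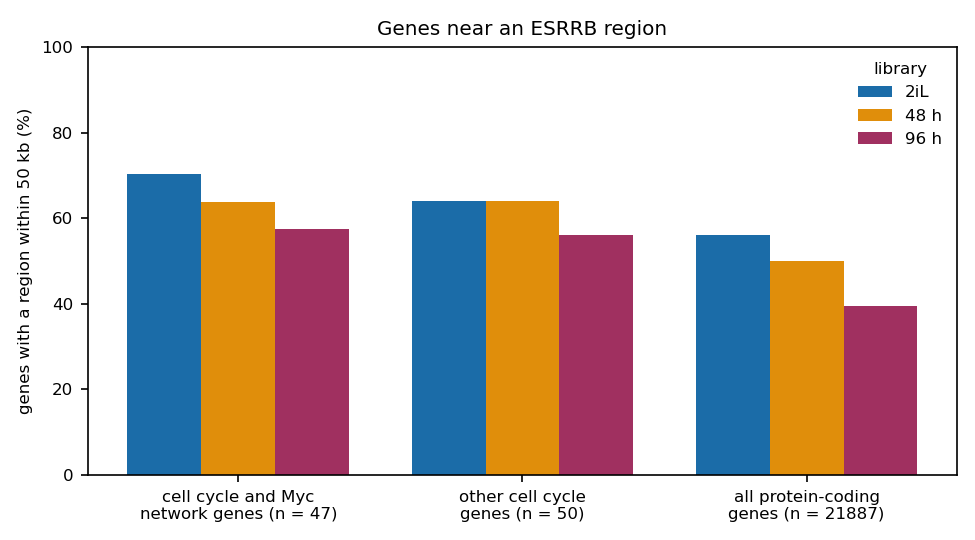
Share of genes with an ESRRB region within 50 kb of the gene span (y axis, %), for the 47 cell cycle and Myc network genes, 50 other cell cycle genes and all 21887 protein-coding genes; each bar is 1 library. The shares of the 47 genes (70.2%, 63.8% and 57.4%) stand above those of all genes (56.0%, 49.9% and 39.6%) in each library. The all-gene values in 2iL and at 48 h lie within the exact binomial intervals of the members' shares.

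Many members near a region in any library had fewer regions after withdrawal: 15 of 41 at 48 h (36.6%) and 23 at 96 h (56.1%). All genes near a region had fewer in 46.9% and 61.9% of cases. More regions than in 2iL were counted at 7 members at 48 h (17.1%, against 22.8% of all such genes) and at 8 members at 96 h (19.5%, against 11.8%). Regions in 2iL alone were found at 6 members (14.6%, against 16.3%), namely Ccnd1, Ccnd2, Ccne2, E2f3, E2f4 and Mycl. Regions at later times alone were found at 8 members (19.5%, against 12.6%), namely Ccnb1, Ccnb2, Cdk4, Cdkn1b, Rb1, Rbl2, Aurka and Mga. The first set holds 2 D-type cyclin genes and 2 E2F genes, and the second holds both B-type cyclin genes, 2 of the 3 Rb family genes and the kinase gene Aurka. Both sets are small, and a link of role to time was not tested. Both sets also depend on the window. For the second set, 2iL summits lay 55.8 kb from Ccnb2 and 54.9 kb from Cdkn1b. For the first set, 48 h summits lay 61.3 kb from Ccnd1 and 63.5 kb from Ccne2. At 96 h, summits lay 63.2 kb from E2f4 and 77.0 kb from E2f3. The nearest later summits of Ccnd2 and Mycl, both of 48 h, were further off, at 105.6 and 230.7 kb.

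**Figure D2:**
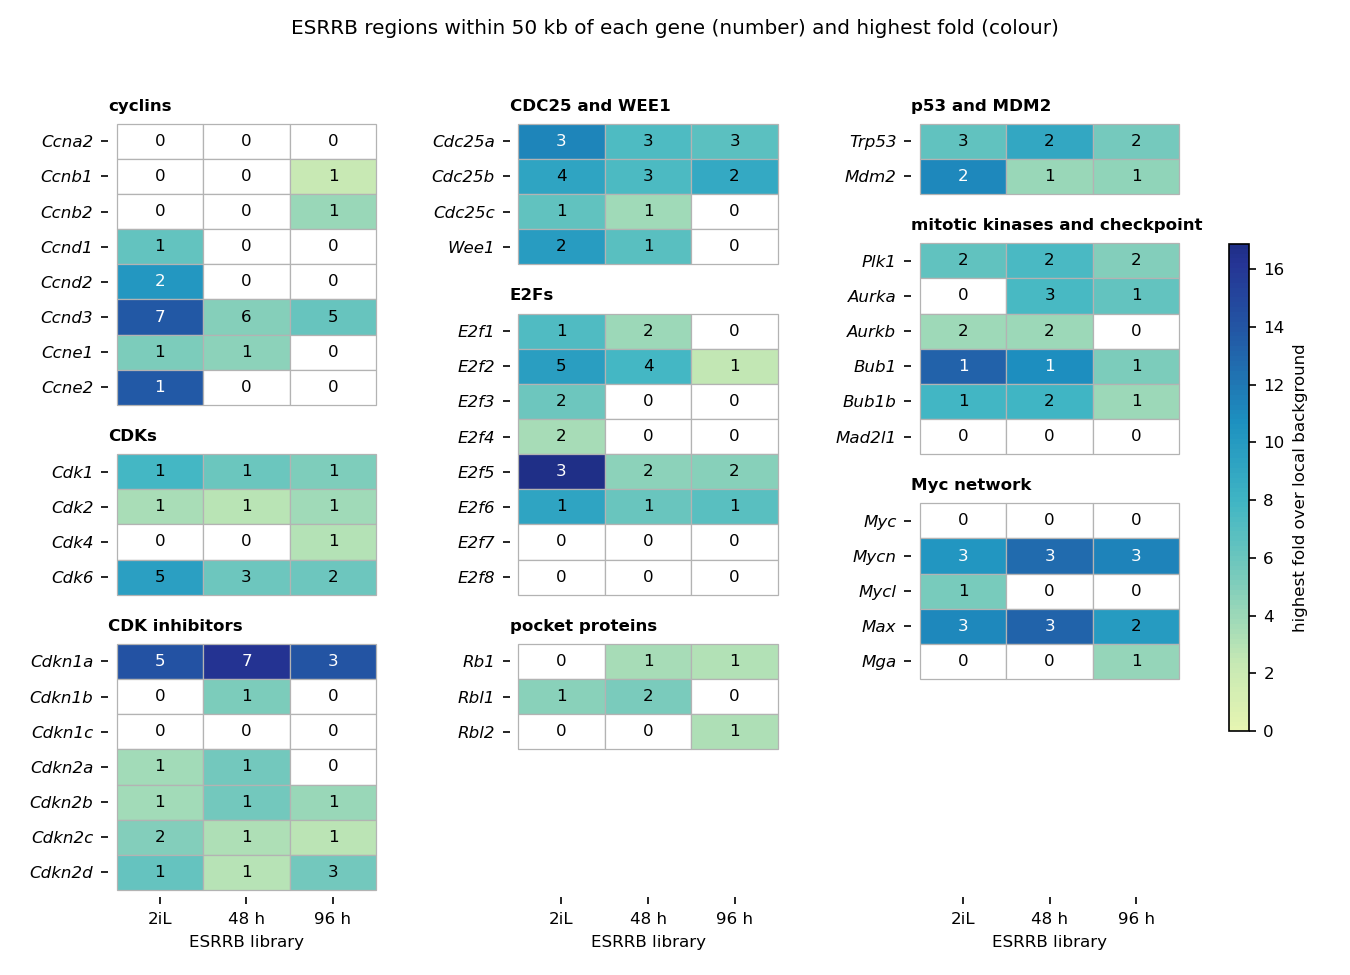
Each cell gives the number of ESRRB regions within 50 kb of 1 gene (rows, by role) in 1 library (columns), and its colour gives the highest fold over local background among them (white: no region). Cdkn1a, Mycn and Max hold dark cells in all 3 libraries, while Ccnd2 and Ccne2 hold them in 2iL alone.

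Among 71 member regions of the 2iL library, 44 were also called at 48 h (62.0%, exact Clopper-Pearson 95% interval 49.7 to 73.2) and 30 at 96 h (42.3%, 30.6 to 54.6), where called means an overlap of at least 1 bp. Over all 2iL regions the shares were 50.7% and 35.0%, and over those within 50 kb of any coding gene 51.4% and 35.5%. The all-region values lie within the members' intervals. Both later libraries held 27 of the 71 (38.0%, against 31.3% of all 2iL regions) and neither held 24 (33.8%, against 45.6%). In the strongest 20% of 2iL folds, 14 of 18 member regions were called at 48 h (against 77.5% of all) and 9 of 18 at 96 h (against 62.2%). In the weakest 20%, 5 of 12 were called at 48 h (41.7%, against 30.4%) and 3 at 96 h (25.0%, against 17.6%). Regions not called in 2iL made up 18 of 62 at 48 h (29.0%, against 36.5% of all) and 16 of 45 at 96 h (35.6%, against 30.5%).

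**Figure D3:**
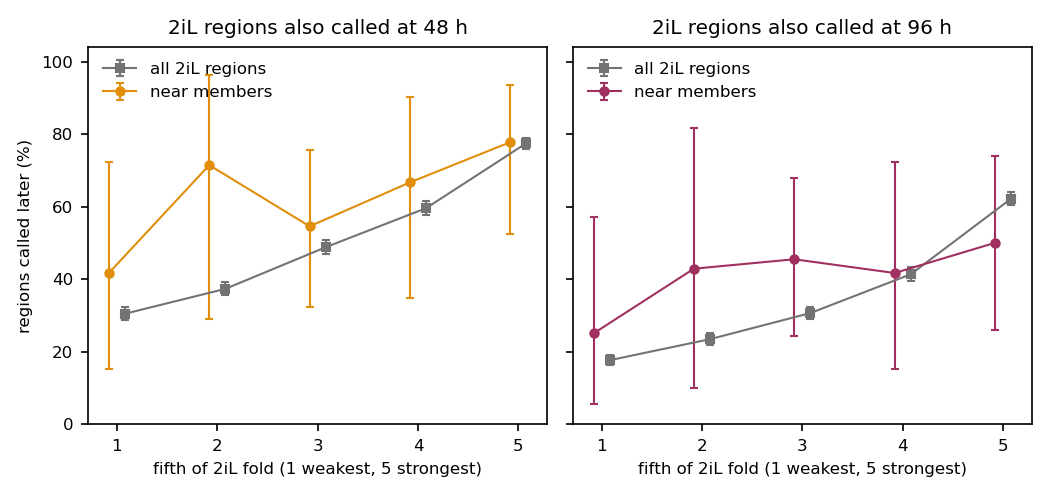
Share of 2iL regions also called at 48 h (left) and 96 h (right), in 5 equal classes of 2iL fold from weakest to strongest, for regions near members (circles) and all 2iL regions (squares), with exact 95% binomial intervals. The shares of all regions rise from 30.4% to 77.5% at 48 h, and the wide intervals of the member regions, 7 to 22 per class, include the value of all regions in each class.

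The median fold of member regions was 6.31 in 2iL (n = 71), 4.63 at 48 h (n = 62) and 4.40 at 96 h (n = 45), beside 5.88, 4.98 and 4.82 over all regions. In 2iL 18 of 71 (25.4%) were in the strongest 20% of their library, at 48 h 10 of 62 (16.1%, against 20% of all) and at 96 h 5 of 45 (11.1%, against 19.9%). Summits within 1 kb of an end of a coding gene were found in 14 of 71 member regions in 2iL (19.7%), 8 of 62 at 48 h (12.9%) and 8 of 45 at 96 h (17.8%), against 10.8%, 10.4% and 13.1% of all regions. Over the regions within 50 kb of any coding gene the shares were 13.1%, 12.6% and 15.7%. The members' shares at 48 h and 96 h (12.9% and 17.8%) were near these, and that in 2iL (19.7%) was higher. A member was the nearest coding gene for 41 of the 71, 36 of the 62 and 22 of the 45 regions, so the other regions lay nearer to a neighbour.

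When overlapping regions of the libraries were merged, the members had 99 positions, each named below by the span it covers. All 3 libraries had a region at 26 of them (26.3%, against 22.9% of the 18634 positions of the whole genome), 2iL alone at 24 (24.2%, against 33.7%), 48 h alone at 13 (13.1%, against 15.5%) and 96 h alone at 11 (11.1%, against 5.37%). Of 43 positions with regions in 2iL and at 48 h, 28 had the lower fold at 48 h (65.1%, against 67.6% of all such positions) and 25 the lower percentile (58.1%, against 52.8%). In 11 of the 43 (25.6%, against 24.5%) the fold was lower and the counting intervals did not meet. None of the 43 had a higher fold at 48 h with intervals apart (against 6.42%). Of 29 positions with regions in 2iL and at 96 h, 24 had the lower fold at 96 h (82.8%, against 74.1%), but by percentile 17 were lower (58.6%, against 58.9%). The fold was lower with intervals apart at 7 of the 29 (24.1%, against 28.7%) and higher with intervals apart at none (against 4.56%).

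**Figure D4:**
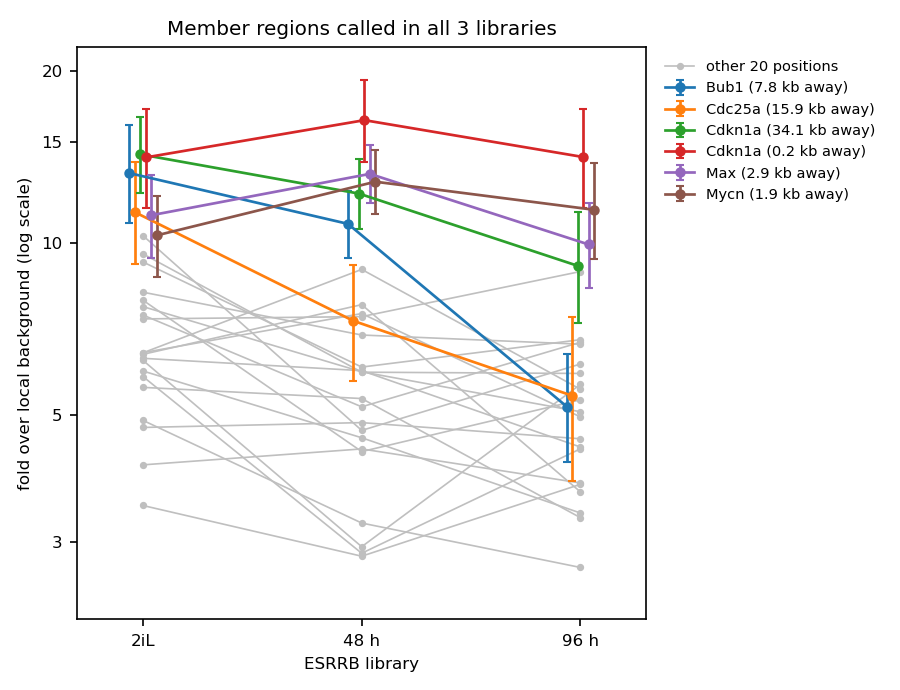
Fold over local background (log axis) in the 3 libraries for the 26 positions near members that were called in each library; lines join the values of 1 position. The 6 with the highest folds are coloured, with 95% Poisson intervals and the distance of the summit from the gene, and the position at the 3′ end of Cdkn1a is the highest at 48 h and 96 h (16.4 and 14.1).

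Of the 7 CDK inhibitor genes, 5 lay near a region in 2iL, with 6 at 48 h and 4 at 96 h. These are 71.4%, 85.7% and 57.1%, against 56.0%, 49.9% and 39.6% of all genes. Cdkn1a encodes p21, the CDK inhibitor best known as a target of p53, and was near 5, 7 and 3 regions in the order 2iL, 48 h, 96 h. One summit, the strongest of Cdkn1a at 48 h and 96 h, lay just past the 3′ end of the gene, in a stretch of joined regions (chr17:29092862-29101251), and had a fold of 14.1 in 2iL (100 reads, 95% interval 11.5 to 17.1), 16.4 at 48 h (148 reads, 13.9 to 19.2) and 14.1 at 96 h (100 reads, 11.5 to 17.2). Those folds stood at the 95.9, 98.6 and 96.9 percentiles of their libraries, and the intervals overlapped. Within that stretch 2iL and 48 h had a separate, weaker region over the body of Cdkn1a, with folds of 5.58 and 3.82, while at 96 h 1 wide region covered both. A region 34.1 kb upstream of Cdkn1a (chr17:29056032-29057922), with Srsf3 as the nearest gene, was the strongest of Cdkn1a in 2iL and had folds of 14.3, 12.2 and 9.12, and here the 96 h interval (7.25 to 11.3) lay below that of 2iL (12.2 to 16.6). Another region, 17.9 kb upstream (chr17:29072329-29074350), had a fold of 8.82 in 2iL and 2.72 at 48 h and was not called at 96 h. Regions of 48 h and 96 h that were not called in 2iL lay 39.1 kb upstream, with folds of 6.66 and 6.22.

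The other CDK inhibitor genes had weaker regions. Cdkn2a and Cdkn2b, neighbours that encode p16, p19ARF and p15, shared 1 region inside Cdkn2a (chr4:89291831-89292785) with a fold of 3.73 in 2iL and 5.64 at 48 h. At 96 h Cdkn2b had another region, 41.1 kb away, with a fold of 4.09. Cdkn2c, which encodes p18, had 2, 1 and 1 regions, the stronger at folds of 4.90, 3.24 and 2.71 (chr4:109656744-109657934). Cdkn2d, which encodes the p19 CDK inhibitor, had 1, 1 and 3 regions, of which the strongest (chr9:21265161-21266492), inside Atg4d, had folds of 6.23, 2.94 and 5.66 and percentiles of 55.4, 5.2 and 64.0, highest at 96 h. Cdkn1b, which encodes p27, had 1 region in the 48 h library alone, 10.7 kb from the gene with a fold of 5.17 (46 reads, chr6:134935986-134936535). The imprinted gene Cdkn1c, which encodes p57, had none.

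In the Myc network the strongest regions lay upstream of Mycn and Max. Mycn, the MYC family gene with important roles in early embryos, had 3 regions in each library. The strongest lay upstream of the start (chr12:12941227-12944575), with the highest summit at position 12943324 in 2iL, 12943766 at 48 h and 12943809 at 96 h. It had a fold of 10.3 in 2iL (149 reads, 95% interval 8.73 to 12.1), 12.8 at 48 h (239 reads, 11.2 to 14.5) and 11.4 at 96 h (105 reads, 9.36 to 13.8). These folds were at the 87.8, 96.2 and 94.0 percentiles, and the intervals overlapped. A second region, inside Mycn (chr12:12938372-12940127), had folds of 8.20, 6.90 and 6.65 (percentiles 76.4, 75.1 and 75.1). The remaining region of 2iL and 48 h lay 4.18 kb past the gene (folds 5.39 and 3.43), and that of 96 h lay elsewhere, 49.2 kb away with a fold of 2.87 from 19 reads.

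Max, the shared partner of the MYC proteins, had 3, 3 and 2 regions. Its strongest, 2.92 kb upstream (chr12:76964257-76966830), had a fold of 11.2 in 2iL (141 reads, 9.42 to 13.2), 13.2 at 48 h (285 reads, 11.7 to 14.8) and 9.94 at 96 h (134 reads, 8.34 to 11.7). By percentile (90.3, 96.6 and 91.1) the 96 h value was not below that of 2iL. A region 34.2 kb upstream of Max was called in 2iL alone (fold 7.61). Mycl, another MYC family gene, had 1 region, inside the gene and in 2iL alone (fold 5.40, chr4:123000385-123001859). Mga had 1 region in the 96 h library alone, 28.8 kb from the gene with a fold of 4.24 (chr2:119843387-119844078). Myc itself had no region within 50 kb: the nearest summit was 54.5 kb away in 2iL (fold 4.99), 101.4 kb at 48 h and 101.6 kb at 96 h.

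**Figure D5:**
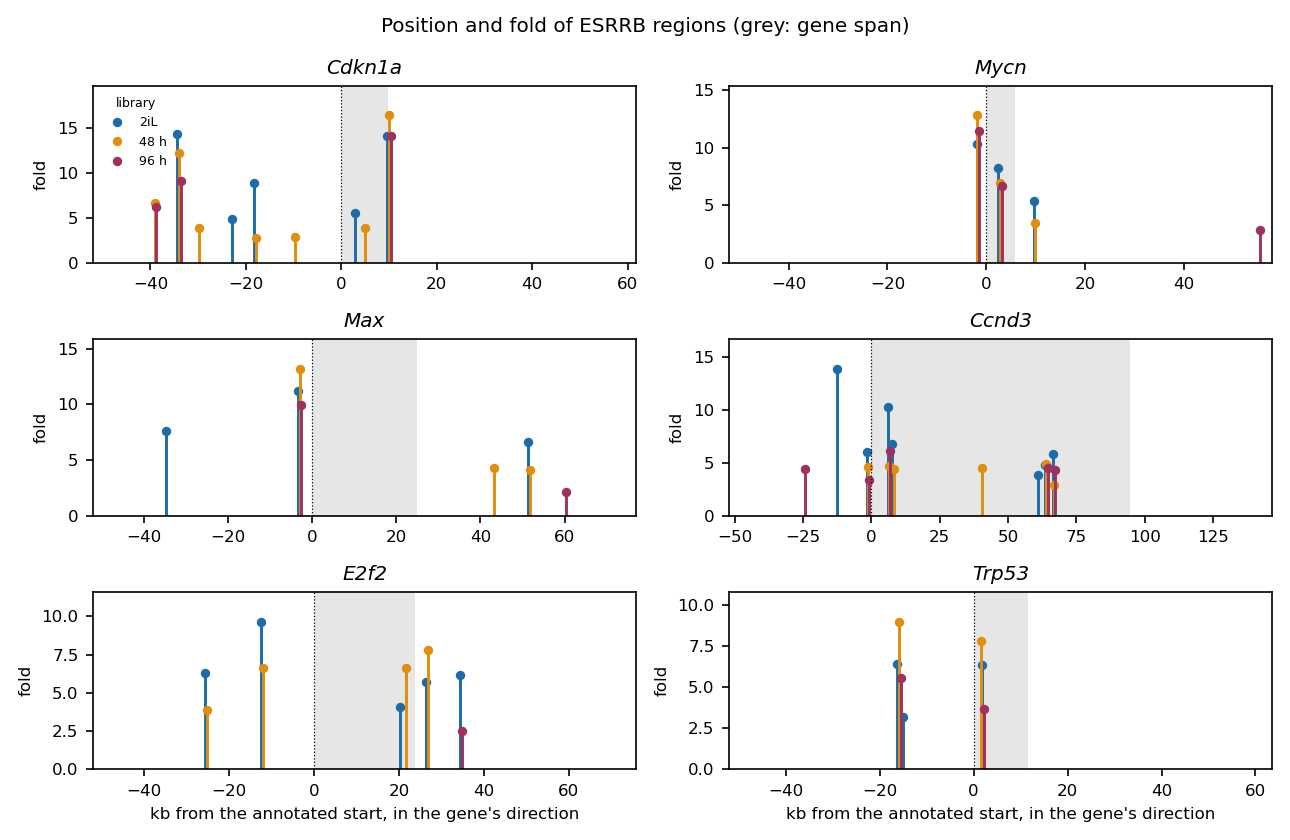
Summit position of each ESRRB region in kb from the annotated start of the gene, in its direction of transcription (x axis), against its fold over local background (y axis), for 6 members; grey marks the gene span and colours mark the library, with points set up to 0.4 kb aside so that they can be told apart. At Mycn and Max the highest points of all 3 libraries stand just upstream of the start, and at Cdkn1a just past the end of the gene and 34.1 kb upstream.

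Promoter sequences, here 250 bases before to 50 after an annotated start (RefSeq, GRCm38.p6, the assembly also called mm10), were given for 35 of the 47 genes, 41 promoters in all. A region overlapped 5 of the 41 in 2iL (12.2%, against 5.19% of 32851 promoters), 3 at 48 h (7.32%, against 3.61%) and 2 at 96 h (4.88%, against 2.72%), and 6 in any library (14.6%, against 6.56%). The 32851 promoters belong to 27025 genes, more than the 21887 protein-coding genes, so this comparison set is unlike that used for the windows. The promoters concerned were those of Mycn and Cdkn1a in each library, of Ccne1, E2f3 and Mdm2 in 2iL and of Bub1b at 48 h. All were searched on both strands for AAGGTCA, the core site bound by estrogen-related receptors, for its longer form TCAAGGTCA, which contains it, and for the shorter AGGTCA, which both contain and which was added after the first search. AAGGTCA was in 1 of the 41 promoters (2.44%, against 4.72% of all), TCAAGGTCA in none (against 0.423%) and AGGTCA in 7 (17.1%, against 16.3%). None of the 6 overlapped promoters held any of the 3, and of all promoters that a 2iL region overlapped 9.92% held AAGGTCA. The sequences below show 3 promoters under a region and the only one with AAGGTCA, each as the 250 bases before the start, 5′ to 3′ in the gene's direction. In the first 3, capitals mark the bases covered by a called region in every library that has one there, and in the last they mark the AAGGTCA match, on the other strand. They are Mycn (chr12:12941837-12942086, minus strand), the downstream one of the 2 Cdkn1a promoters in the table (chr17:29093519-29093768, plus strand), Mdm2 (chr10:117710759-117711008, minus strand) and the upstream one of the 2 Ccnd3 promoters (chr17:47504801-47505050, plus strand).
Mycn: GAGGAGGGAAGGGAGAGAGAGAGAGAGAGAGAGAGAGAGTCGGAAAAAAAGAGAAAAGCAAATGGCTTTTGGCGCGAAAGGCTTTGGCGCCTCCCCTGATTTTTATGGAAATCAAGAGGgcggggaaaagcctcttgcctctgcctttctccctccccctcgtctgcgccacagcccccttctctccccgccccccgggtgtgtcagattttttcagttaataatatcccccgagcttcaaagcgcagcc
Cdkn1a: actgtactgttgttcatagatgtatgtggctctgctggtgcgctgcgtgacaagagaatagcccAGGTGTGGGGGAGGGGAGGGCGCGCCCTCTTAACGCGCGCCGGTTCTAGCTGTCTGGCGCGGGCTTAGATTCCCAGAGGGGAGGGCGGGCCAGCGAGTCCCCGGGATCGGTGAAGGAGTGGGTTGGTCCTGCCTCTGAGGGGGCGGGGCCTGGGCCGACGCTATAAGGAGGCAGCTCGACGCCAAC
Mdm2: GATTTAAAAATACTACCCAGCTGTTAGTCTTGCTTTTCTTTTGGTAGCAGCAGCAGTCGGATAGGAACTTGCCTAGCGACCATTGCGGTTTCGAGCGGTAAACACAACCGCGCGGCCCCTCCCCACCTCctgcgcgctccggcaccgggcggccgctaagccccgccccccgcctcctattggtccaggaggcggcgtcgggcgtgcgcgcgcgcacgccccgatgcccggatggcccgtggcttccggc
Ccnd3: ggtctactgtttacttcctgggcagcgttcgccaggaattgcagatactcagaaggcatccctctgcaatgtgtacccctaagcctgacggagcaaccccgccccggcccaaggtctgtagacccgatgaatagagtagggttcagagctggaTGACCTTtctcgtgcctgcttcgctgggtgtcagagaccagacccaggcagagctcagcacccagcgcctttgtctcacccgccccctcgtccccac
In Mycn 119 of the 250 bases, the far end from the start, were covered in all 3 libraries, and the strongest summits lay further upstream than the printed stretch. In Cdkn1a 186 bases were covered in all 3 libraries, by the weaker gene-body region in 2iL and at 48 h and by the wide region at 96 h. In Mdm2 129 bases were covered, in 2iL alone. The Ccnd3 stretch was not overlapped in any library, and the nearest region ended upstream of it, at position 47504402.

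Of the 8 cyclin genes, 5 lay near a region in 2iL, with 2 at 48 h and 3 at 96 h. These are 62.5%, 25.0% and 37.5%, against 56.0%, 49.9% and 39.6% of all genes. Ccnd3, which encodes the G1 cyclin D3, had the most regions of any member in 2iL, 7, with 6 at 48 h and 5 at 96 h. Its strongest 2iL region, 12.1 kb upstream and inside Taf8 (chr17:47492513-47494002), had a fold of 13.9 (90 reads) and was called at neither later time. A region inside Ccnd3 (chr17:47510758-47512136) had folds of 10.3, 4.70 and 6.14, and both later intervals lay below that of 2iL (8.73 to 12.1). A weaker one, 1.15 kb upstream of the start (chr17:47502629-47504402), had folds of 5.97, 4.56 and 3.37. Ccnd3 was thus the D-type cyclin gene with regions in all 3 libraries.

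Ccnd2, the gene of cyclin D2, had 2 regions in 2iL and none later, with folds of 10.2 (chr6:127082830-127083663, nearest Fgf23) and 6.95 (chr6:127120151-127121478). Ccnd1, the gene of cyclin D1, had 1 region in 2iL alone, 40.8 kb away and nearer to Fgf15, with a fold of 6.35 (chr7:144888557-144889653). Ccne2, an E-type cyclin gene that acts at the entry to S phase, had 1 region in 2iL alone, 43.6 kb away, with a fold of 13.8 (142 reads, chr4:11146238-11147528). The nearest gene of that region was Trp53inp1. The other E-type gene, Ccne1, had 1 region just upstream of its start (chr7:38107663-38108702), with a fold of 5.21 in 2iL and 4.54 at 48 h (percentiles 37.0 and 40.7). The mitotic cyclin genes Ccnb1 and Ccnb2 had 1 region each, at 96 h alone. That of Ccnb1, 34.5 kb away and inside Mrps36, was among the weakest of its library (fold 2.18, 1.8 percentile, chr13:100743952-100744648). That of Ccnb2 lay inside the gene (fold 4.06 from 30 reads, chr9:70418009-70418628). Ccna2, the gene of cyclin A2, had none.

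All 4 CDK genes had a region at 96 h (against 39.6% of all genes). In 2iL and at 48 h 3 of them did (75.0%, against 56.0% and 49.9%). Cdk6, a partner of the D-type cyclins, had 5, 3 and 2 regions. The strongest, inside Cdk6 (chr5:3453590-3454804), had folds of 9.57, 5.94 and 5.91 (percentiles 84.6, 65.4 and 67.1). Cdk1, the kinase of mitosis, had 1 region in each library, 14.1 kb upstream (chr10:69365966-69367659), with folds of 7.74 (58 reads), 5.95 (59 reads) and 5.07 (41 reads), and the intervals overlapped. Cdk2, the partner of E-type cyclins, also had 1 region in each, inside Dgka with folds of 3.48, 2.83 and 3.78. Cdk4 had 1 weak region, at 96 h alone (fold 3.01, chr10:127079577-127080681).

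The 4 genes for CDC25 phosphatases and WEE1 each lay near a region in 2iL and again at 48 h, and 2 of them did at 96 h. Of all genes 56.0%, 49.9% and 39.6% did. Cdc25a, the phosphatase gene of the G1 to S step, had 3 regions in each library. Its strongest (chr9:109908486-109910474) had folds of 11.3, 7.30 and 5.41 and stood at the 90.7, 78.3 and 60.5 percentiles. The next (chr9:109899020-109901043), 5.81 kb past the gene, had folds of 7.48, 5.17 and 6.70 and percentiles of 70.4, 53.8 and 75.4, highest at 96 h. Cdc25b, which acts at the entry to mitosis, had 4, 3 and 2 regions. Its strongest 2iL region, beside Cenpb, had a fold of 9.22 and one of 4.44 at 48 h (chr2:131179395-131180791), and the position 34.1 kb upstream had folds of 7.36, 7.43 and 8.91 (chr2:131151772-131152831). Wee1, the gene of the kinase that holds CDK1 inactive, had 2, 1 and 0 regions, the stronger 38.4 kb away with folds of 9.86 and 6.81 (chr7:110180710-110182490). Cdc25c had 1 region in 2iL (fold 6.40, chr18:34776602-34779227) and another at 48 h (fold 3.83, chr18:34729864-34732182), at different positions.

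Of the 8 E2F genes, 6 lay near a region in 2iL, with 4 at 48 h and 3 at 96 h. Of all genes 56.0%, 49.9% and 39.6% did. The E2F shares at 48 h and 96 h were near these values, and that in 2iL was higher. A difference from all genes was not tested. E2f5, a repressor E2F gene, had 3, 2 and 2 regions and the strongest 2iL region of all members (chr3:14620210-14622048). This region lay 15.2 kb from E2f5 and nearer to Rbis (10269 bp). Its fold was 16.9 in 2iL (158 reads, 95% interval 14.4 to 19.7, 98.1 percentile) and 4.54 at 48 h (63 reads, 3.51 to 5.79, 40.8 percentile), and it was not called at 96 h. E2f2, an activator E2F gene, had 5, 4 and 1 regions. Of these, that 12.03 kb upstream (chr4:136159590-136160582) had folds of 9.64 and 6.61. The positions inside and 2.99 kb past E2f2 had folds of 4.06 and 5.68 in 2iL and 6.66 and 7.78 at 48 h, although inside E2f2 the highest summits of the libraries lay apart, at 136192979 and 136193818. All 4 regions of E2f2 at 48 h were also called in 2iL, and none of them at 96 h.

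E2f6, a repressor gene that works with Polycomb proteins, had 1 region in each library, 24.2 kb away, with folds of 9.26, 6.07 and 6.77 (chr12:16850247-16851340). E2f1 had 1, 2 and 0 regions, of which that 6.76 kb from the gene had folds of 7.20 and 3.96 (chr2:154576040-154577217). E2f3 had 2 regions in 2iL alone, both inside the gene, with folds of 5.93 and 5.37 (chr13:29946839-29947700 and chr13:29983990-29985055). E2f4 had 2 weak ones in 2iL alone, of which the stronger had a fold of 3.56 (chr8:105277851-105279514). The atypical repressor genes E2f7 and E2f8 had none, with the nearest 2iL summits 67.5 and 429.7 kb away.

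Of the 3 Rb family genes, 1 lay near a region in 2iL, with 2 at 48 h and 2 at 96 h. These are 33.3%, 66.7% and 66.7%, against 56.0%, 49.9% and 39.6% of all genes. Their regions together numbered 1 in 2iL, 3 at 48 h and 2 at 96 h. Rb1 had 1 region inside the gene at 48 h and 96 h (folds 3.53 and 3.10, chr14:73231085-73232121). Rbl1, which encodes p107, had 1 inside the gene in 2iL and at 48 h (folds 4.69 and 5.27, chr2:157186373-157187220) and a second at 48 h. Rbl2, which encodes p130, had 1 at 96 h alone, 46.5 kb away and nearer to Aktip (fold 3.28, chr8:91170049-91170665). None of these folds reached 6.

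Trp53, the gene of the tumour suppressor p53, had 3, 2 and 2 regions. The region 15.8 kb upstream (chr11:69563990-69565134), inside Wrap53, had folds of 6.42 (140 reads), 8.99 (138 reads) and 5.55 (56 reads), at percentiles of 58.1, 87.4 and 62.1. The region inside Trp53 (chr11:69581100-69583234) had folds of 6.39, 7.80 and 3.67, with the 2iL summit at 69582571 and those of 48 h and 96 h at 69582035 and 69582084. At both positions the 48 h value was the highest by fold and by percentile (87.4 and 81.6), and the intervals of 2iL and 48 h overlapped. Mdm2, the gene of the ubiquitin ligase that removes p53, had 2 regions in 2iL that were not called later, with folds of 11.1 inside the gene (chr10:117703366-117704246) and 5.82 upstream of the start (chr10:117710880-117711902). At 48 h and 96 h another region was called 7.05 kb upstream, with folds of 4.09 and 4.44 (chr10:117717115-117718446). The Mdm2 regions of 2iL and of the later times thus lay at different positions.

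Of the 6 mitotic kinase and checkpoint genes, 4 lay near a region in 2iL, with 5 at 48 h and 4 at 96 h. These are 66.7%, 83.3% and 66.7%, against 56.0%, 49.9% and 39.6% of all genes. Bub1, the gene of a spindle checkpoint kinase, had 1 region in each library, 7.79 kb upstream and inside Acoxl (chr2:127838890-127840864). Its folds were 13.2 in 2iL (102 reads, 10.8 to 16.0), 10.8 at 48 h (218 reads, 9.42 to 12.3) and 5.17 at 96 h (83 reads, 4.13 to 6.40). The 96 h interval lay below the other two, and the percentiles were 94.7, 92.7 and 56.7. Aurka, the gene of the centrosomal kinase Aurora A, had 3 regions at 48 h, 1 at 96 h and none in 2iL. The strongest, 6.46 kb upstream and inside Cstf1 (chr2:172377003-172377712), had a fold of 7.53 at 48 h (131 reads, 6.30 to 8.92) and 6.38 at 96 h (73 reads, 5.02 to 7.999). The nearest 2iL summit to Aurka lay 98.8 kb away.

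Bub1b, which encodes the checkpoint protein BUBR1, had 1, 2 and 1 regions, and none was shared with 2iL. Its 2iL region lay at the 3′ end (fold 7.81, chr2:118641020-118642137). The later ones lay 46.3 kb upstream, nearer to Bmf (folds 7.89 and 3.98, chr2:118551279-118552582), and, at 48 h, over the start (fold 3.31, chr2:118597987-118599070). Plk1, the polo-like kinase gene, had 2 regions in each library, the stronger with folds of 6.43, 7.52 and 4.96 (chr7:122190412-122191457). That region lay 21.2 kb from Plk1 and 4860 bp from Ern2. Aurkb, the gene of Aurora B, had 2, 2 and 0 weak regions, with a highest fold of 3.93 at 48 h (chr11:69039684-69041240). Mad2l1, which encodes the checkpoint protein MAD2, had none, and its nearest 2iL summit was 566.2 kb away.

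Another 50 cell cycle genes (licensing and replication factors, further cyclins, checkpoint and spindle genes, E2F partners, and further partners in the Myc network) were examined in the same way. Of these, 32 had a region within 50 kb in 2iL (64.0%), 32 did at 48 h (64.0%) and 28 did at 96 h (56.0%), beside 56.0%, 49.9% and 39.6% of all genes. The highest fold near them was at Mybl2, the gene of the B-MYB factor, at 16.2 in 2iL, 15.8 at 48 h and 23.2 at 96 h, with 7, 6 and 5 regions. Cdt1, a licensing factor gene, had highest folds of 7.67, 7.93 and 12.4. Near Tfdp2, which encodes an E2F partner, they were 8.88, 12.03 and 3.98, and near Kif11, a mitotic motor gene, 6.95, 10.7 and 7.60. Mad1l1 (14.1, 7.77 and 3.38), Mcm3 (13.9, 7.13 and 6.999), Espl1 (12.4, 8.16 and 6.59) and Chek2 (11.4, 7.24 and 9.35) had the highest value in 2iL. No region was called near 12 of the 50, among them Mcm2, Mcm4, Cdc20, Chek1, Atm and Atr. Their 2iL regions numbered 73, of which the 48 h library held 42 (57.5%) and the 96 h library 32 (43.8%), beside 50.7% and 35.0% of all 2iL regions.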

How the data were processed

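Per the submitters' processing notes, bcl2fastq 2.20.0.422, BWA, SAMtools, Picard and MACS2 were used with build mm10. The sources used here do not give the role of each tool, the mapping filters or the calling threshold. The authors deposited 1 peak list per antibody library. Per line, the authors give an interval, a score capped at 1000, and the summit offset in bp. The fold was deposited by the authors as a ratio of reads at the summit to local background, as the peak caller makes it. The −log10 of p and of q were deposited by the authors as computed by the peak caller for each summit. No file of the 3 input libraries was analysed here, and the sources used do not say if they were the controls. The deposited score and the deposited q-value served only to describe the lists and for the alternative with a stricter q.

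Lines of 1 interval were joined into a region. Reads at a summit were solved from fold and p, with 1 added to reads and background; they were whole within 0.05 for 100% of summits, against 10.0% by chance. Spans, names and promoters came from RefSeq (GRCm38.p6). Any summit within 50 kb of a span counted, overlaps needed 1 bp, and mitochondrial genes were left out. Code ran in Python 3.11.15 with pandas 2.3.3 and scipy 1.17.1, and was checked against simulated data and bedtools 2.31.1. No test between conditions and no p-value was computed. The members and lists were chosen with earlier results of these data known. Members are described with positions where a fold reached 6 or the number of regions differed between libraries, and of the other cell cycle genes the 8 with the highest fold are named with folds. No genome sequence was used, so motifs were searched in promoters alone, and the promoters printed were chosen after their overlap with regions was seen. Alternatives were windows of 10 and 100 kb, a stricter q (1e-05), equally long lists, overlap of 50% of both regions, the highest summit only and the nearest gene only.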

Additional observations from a re-analysis of the deposited data

How the results depend on the processing

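No paired analysis was possible because each condition had 1 library. Values in order are for 2iL, 48 h and 96 h. With a 10 kb window, members with a region numbered 21, 21 and 13 (44.7%, 44.7% and 27.7%, against 31.9%, 27.2% and 20.2% of all protein-coding genes), their regions 34, 34 and 18, members without any region 22, and the share of 2iL regions called at 48 h was 73.5%. With 100 kb, 41, 40 and 37 members had a region (87.2%, 85.1% and 78.7%, against 69.8%, 64.7% and 54.0% of all protein-coding genes). Their regions numbered 127, 111 and 80, and 2 members had none. Counting regions for the nearest protein-coding gene only gave 21, 21 and 14 members (44.7%, 44.7% and 29.8%, against 29.9%, 25.8% and 18.9%), 41, 36 and 22 regions, and 21 members without any. Lists of equal length by fold gave 46 regions in 2iL and 38 at 48 h, with median folds of 7.54 and 6.15. Region counts can only fall or stay with a narrower window, the nearest gene only or a shorter list. With a wider window they can only rise or stay. Why the share called at 48 h moved was not tested. On equal lists the shares of member regions called later were 50% at 48 h and 47.8% at 96 h. The stricter q (1e-05) left 40 regions and 25 members at 96 h (53.2%, against 38.0% of all protein-coding genes). With overlap of 50% of both regions, 56.3% of the 2iL member regions were called at 48 h and 38.0% at 96 h. For the shares called later, the values over all regions at these settings are not given here, so they are not read against a background. Using the highest summit only changed no count. Counts per gene moved by over 1.5 times in 57 of 123 cases with either other window, 48 with the nearest gene only, 26 with equal lists and 3 with the stricter q. Promoters with a match numbered 0 for TCAAGGTCA and 7 for AGGTCA, against 1 for AAGGTCA. Reads at a summit, 14 to 285 near members, limit the precision of each fold.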

Other observations

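Some member regions lay nearer to another gene with a known role in stem cells or in growth control, chosen here after their values were seen. The E2f2 region 25.3 kb upstream of that gene lay 1565 bp from Id3, a BMP target gene, with folds of 6.29 in 2iL and 3.90 at 48 h. The Ccne2 region lay 9633 bp from Trp53inp1, a p53 target gene, and the 2iL region near Ccnd1 lay 7392 bp from Fgf15. The Mad2l1 promoter held the core AGGTCA at 2 places and had no region within 50 kb. The weakest member region was that of 96 h near Cdkn2d, inside Atg4d, with a fold of 1.71 from 14 reads.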
